A study of Mus musculus with 4 samples.

Results

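The comparison described here is that of small with ungated mouse embryonic stem (ES) cells kept in 2i medium, which are 2 of the 4 samples of the series. Wild-type ES cells growing in 2i were passed through a gate on forward and side scatter that took small cells, or were taken without a gate, plated for 6 h on laminin in 2i or in N2B27, and then sorted as single cells for Smart-seq2 sequencing. The submitters describe the small gate as cells leaving mitosis and cells in G1, and the ungated cells as its control, so the comparison asks how cells early in the cycle differ from the whole population while the medium still holds them naive. Both groups are E14 cells labelled wild type, and both stayed in 2i throughout. The study's methods add leukemia inhibitory factor (LIF) to 2i for the culture of ES cells. Each sample held 24 cells from 1 pool, and no second pool was analysed here for either side. There is therefore no replicate, no p-value is given, and every value below compares these pools of cells rather than the conditions. Small and ungated cells were also placed on different index rows of the same plate, so row and gate cannot be told apart.

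2i medium combines an inhibitor of MEK with an inhibitor of GSK3. The first stops the ERK signal that pushes ES cells towards differentiation, the second raises beta-catenin, and together they keep cells in the naive state of the early epiblast, which is marked by the factors Nanog, Zfp42 (REX1), Esrrb, Klf2, Klf4, Tbx3 and Tfcp2l1. Naive ES cells have a short G1 and spend most of the cycle in S phase. Cyclins, kinesins and kinetochore proteins of mitosis are made late in the cycle and are removed as cells divide, whereas genes for ribosomes and respiration are active throughout it.

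Cells were kept with at least 1200000 counts on genes, at least 4400 genes detected and at most 5.2% of gene counts from the mitochondrial genome. These limits kept 12 of 24 small cells and 22 of 24 ungated cells. Of the 12 small cells left out, 9 had fewer counts on genes than on the ERCC spike-ins, synthetic RNAs added to each well, and 1 was left out for its mitochondrial share alone. Kept small cells held between 1415417 and 4722095 gene counts (median 3331438) and kept ungated cells between 1364155 and 4844170 (median 2776645). Depth was therefore similar, but content was not. Small cells had counts on 4612 to 15712 genes with a median of 7603, and ungated cells on 8622 to 10335 with a median of 9516. Thinned to 1364155 counts per cell, the depth of the shallowest kept cell, the medians were 6628 and 8844 genes. Spike-ins took a median of 3.47% of counts in small cells (0.0673% to 40.9%) and 1.28% in ungated cells (0.718% to 2.42%), a ratio of 2.71.

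The 12 small cells were not alike. In 4 of them the spike-in share was over 10%, from 11.1% to 40.9%, and these 4 had at most 5775 genes detected. The cell with the highest share had a DESeq2 size factor of 0.144 although it held 1560920 gene counts, against 0.530 for the next lowest small cell, so its counts were scaled up most and it weighed heavily in the means. At the other end, 1 cell had counts on 15712 genes and the lowest spike-in share. The 7 remaining small cells had 0.990% to 5.02% of spike-ins and 7283 to 10069 genes detected, with a median of 8245. Setting the limit of 10% was decided after the data were seen. Values from these 7 cells are given beside those of most lists and of many genes, since many results moved with the other 5.

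**Figure D1:**
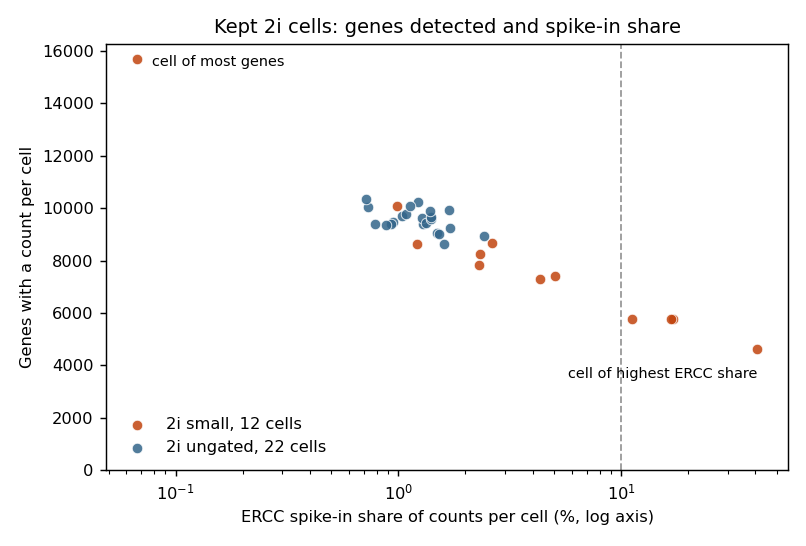
Each point is a kept 2i cell, with the share of its counts on ERCC spike-ins in percent on a log axis against the number of genes with a count. The 22 ungated cells sit together between 0.718% and 2.42%, whereas the 12 small cells spread from 0.0673% to 40.9%, with 4 of them to the right of the dashed line at 10%.

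Phases were called per cell with cyclone, from pairs of marker genes. It placed 6 of 12 small cells in G1 (50%, exact binomial 95% interval 21.1% to 78.9%), 5 in S (41.7%, 15.2% to 72.3%) and 1 in G2/M (8.33%, 0.211% to 38.5%). No ungated cell of 22 was placed in G1 (upper limit 15.4%), 8 were placed in S (36.4%, 17.2% to 59.3%) and 14 in G2/M (63.6%, 40.7% to 82.8%). These intervals cover counting error in 1 pool per gate and do not compare the gates. Of the 7 small cells, 3 were in G1 (42.9%, 9.90% to 81.6%), 3 in S and 1 in G2/M (14.3%, 0.361% to 57.9%). Seurat's gene scores gave 5 G1, 5 S and 2 G2/M among the 12 small cells, and 2 G1, 11 S and 9 G2/M among the ungated cells.

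For each gene the difference is given as a relative log2 ratio. This is the log2 ratio of mean normalized counts, small over ungated, with 1 added to both means, less its median (−0.31) over the 8550 genes compared. A gene was compared where its 2 group means averaged 20 normalized counts or more. A gene was called at a relative log2 ratio of 1 or more in size, a 2-fold difference. By that rule 1939 genes were higher in small cells (22.7% of those compared) and 1542 lower (18.0%). The calls were then required to hold in 5 computations, namely the main one, pooled counts, each gene's highest cell left out in each group, and leaving out the small cell with the most genes or the one with the highest spike-in share. In all 5, 847 genes were higher (9.91%) and 1216 lower (14.2%). In the 7 small cells 1007 genes were past the threshold upwards (11.8%) and 1399 downwards (16.4%). Of the 847 genes higher in all 5 computations, 507 (59.9%) were also past it in the 7 cells, and of the 1216 lower genes 997 (82.0%) were. Of all calls 55.7% were upwards, against 41.9% in the 7 small cells and 30.1% with size factors from the spike-ins. Spike-in scaling without centring moved the median of all genes to 0.78, and 90.5% of calls were then upwards. The median spike-in share was nevertheless higher in small cells (3.47%) than in ungated cells (1.28%). This scaling raises cells with few spike-ins, and the small cell with the most genes had the lowest share (0.0673%). The part of that cell in the values scaled by spike-ins was not tested. Of the genes named below and called, Apc, Atp5s, Ccne1, Hmgcs1, Klf2 and Sept11 changed direction with spike-in size factors after centring. A larger share of the lower than of the higher genes thus stayed past the threshold in the 7 cells. These 7 are among the 12 cells used to choose the genes, so this gives no separate support. They lack the cell of most genes as well as the cells with many spike-ins, so the shares do not tell these apart.

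**Figure D2:**
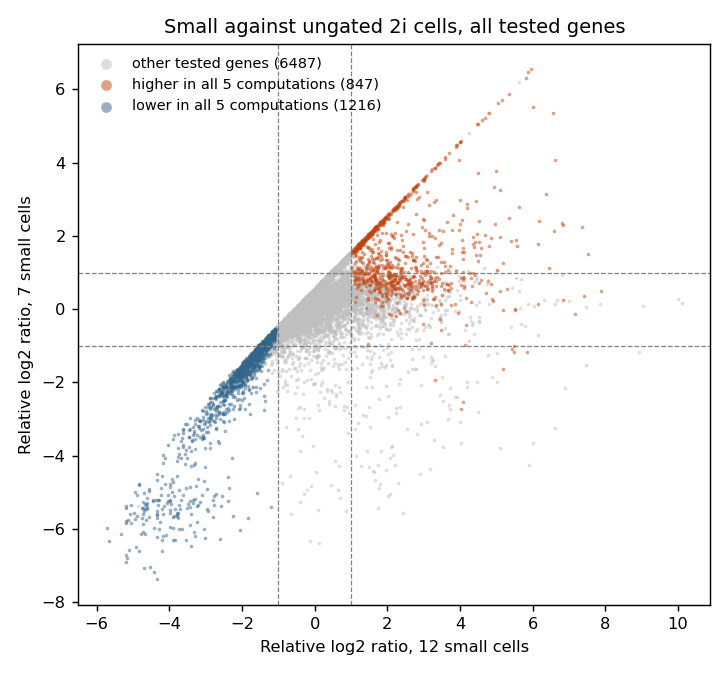
Each point is 1 of the 8550 genes compared, with its relative log2 ratio from all 12 small cells on the horizontal axis and from the 7 small cells on the vertical axis, and dashed lines at 1 and −1. Most of the 1216 genes called lower in all 5 computations stay below −1 in the 7 cells, while 507 of the 847 genes called higher stay above 1.

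Detection was also compared for the genes called. They were chosen by their values in these same cells, so the shares of cells and of pairs below describe them and give no separate support. Genes lower in all 5 computations had a count in a median of 41.7% of small cells and 77.3% of ungated cells, and 42.9% of the 7 small cells. At equal depth these were 33.3% and 72.7%. Over all genes compared the medians were 66.7% of small, 90.9% of ungated and 85.7% of the 7 small cells. Genes higher in all 5 computations were detected in 75% of small and 72.7% of ungated cells. As a measure that no single cell can dominate, every small cell was also set against every ungated cell, which gives 264 pairs. The small cell had the lower value in 62.1% of pairs for the median gene, in 75.8% for the genes called lower in all 5 computations and in 40.9% for those called higher.

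Lists of genes were then followed by function, each described by the median relative log2 ratio of its members beside 0 for all 8550 genes, with an interval from the ranks of its members. Genes of a list are not replicates. Counts called in a list stand beside 22.7% called higher and 18.0% called lower over all genes compared. The counts called higher among proteasome, spliceosome, G1 and general pluripotency genes lay near the first of these shares. Apart from the lists of lineage markers, the lists with the lowest medians were mitotic entry and exit control (−0.86), glycolysis (−0.61) and lysosomal genes (−0.58). The highest were imprinted genes (1.21), replication-dependent histones (1.19), mitochondrially encoded genes (1.15), ribosomal proteins (1.11) and nuclear genes of oxidative phosphorylation (1.10). In the 7 small cells the 3 low medians were −0.62, −0.49 and −0.30, and the 5 high medians lay between 0.08 and 0.32.

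**Figure D3:**
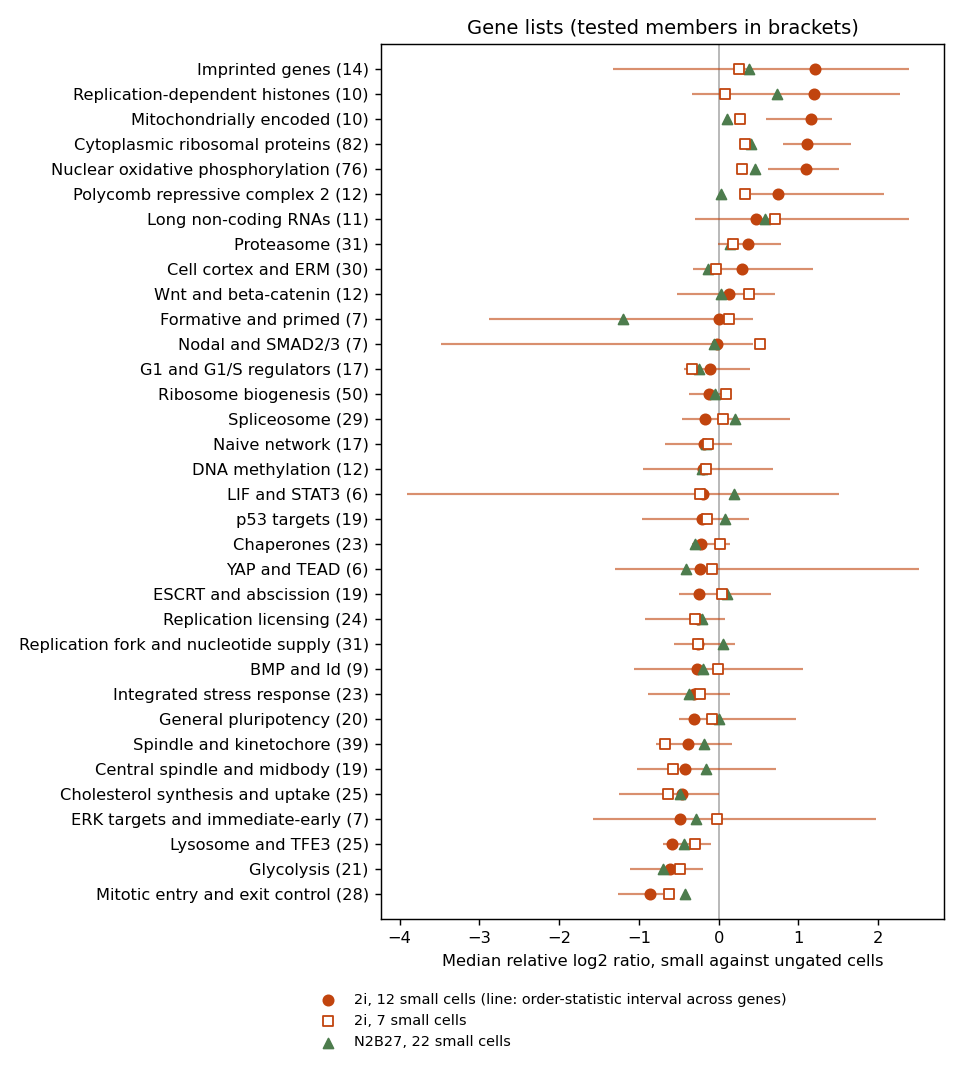
Each row is a gene list with the number of members compared in brackets, and the horizontal axis is the median relative log2 ratio, small against ungated cells, where 0 is the median of all genes. Filled circles with their order-statistic interval come from all 12 small cells in 2i, open squares from 7 of them and triangles from the 22 small cells in N2B27. Mitotic entry and exit control lies lowest at −0.86, and the ribosomal protein and oxidative phosphorylation lists lie near 1.1 in the 12 cells but near 0.3 in the 7.

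The promoters of 3 mitosis genes that were lower in small cells in all 5 computations are shown as examples that carry motifs known from late cycle genes. Promoters of many late cycle genes carry a cell cycle homology region (CHR, TTTGAA) beside CCAAT boxes, the first bound by the MuvB complex and the second by NF-Y. The sequences run 5′ to 3′ from 250 bases before to 50 after the annotated start in RefSeq, build GRCm38.p6, at chr11:102925075-102925374 on the minus strand (Kif18b), chr9:61946750-61947049 on the minus strand (Kif23) and chr5:30666636-30666935 on the plus strand (Cenpa). Capitals mark CHR and CCAAT letters on either strand.
Kif18b: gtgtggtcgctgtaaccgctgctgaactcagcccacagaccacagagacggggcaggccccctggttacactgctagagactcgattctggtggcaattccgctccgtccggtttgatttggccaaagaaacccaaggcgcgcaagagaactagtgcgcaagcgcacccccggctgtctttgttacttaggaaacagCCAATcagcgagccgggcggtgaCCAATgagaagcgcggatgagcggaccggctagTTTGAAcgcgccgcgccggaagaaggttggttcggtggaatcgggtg
Kif23: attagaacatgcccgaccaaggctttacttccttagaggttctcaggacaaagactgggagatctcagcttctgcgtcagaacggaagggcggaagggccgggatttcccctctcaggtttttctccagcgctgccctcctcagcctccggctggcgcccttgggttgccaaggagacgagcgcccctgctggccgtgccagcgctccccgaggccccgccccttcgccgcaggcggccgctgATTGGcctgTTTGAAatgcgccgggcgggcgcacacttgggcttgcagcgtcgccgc
Cenpa: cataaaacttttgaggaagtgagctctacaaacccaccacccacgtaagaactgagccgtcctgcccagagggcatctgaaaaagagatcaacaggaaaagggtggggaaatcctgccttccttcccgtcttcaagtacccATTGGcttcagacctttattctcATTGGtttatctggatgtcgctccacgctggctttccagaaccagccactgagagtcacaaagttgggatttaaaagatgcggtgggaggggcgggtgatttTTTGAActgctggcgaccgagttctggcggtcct
In each of the 3 the CHR letters lie just after the annotated start. They were shown because they hold the letters. The promoter of Pttg1, also lower in all 5 computations, holds neither motif, and that of Smc2, which was higher, holds both. The 3 lists of mitosis genes are described next, of mitotic control, of the spindle and kinetochore and of the central spindle. Of 14 promoters in the table for their members called lower in all 5 computations, 10 (71.4%) held TTTGAA and 13 (92.9%) held CCAAT on either strand. Among the other compared genes of the same lists 37 of 64 promoters (57.8%) held TTTGAA and 44 (68.8%) CCAAT, so both motifs were frequent across these lists. Of all 32851 RefSeq promoters given, 17.9% held TTTGAA and 37.4% CCAAT, of the promoters of all genes compared 12.4% and 39.5%, and of the promoters of all genes called lower in all 5 computations 11.6% and 40.8%.

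The list of mitotic entry and exit control covers mitotic cyclins, their kinases, the spindle checkpoint and the anaphase-promoting complex. Of its 28 members compared, 12 were called lower and 1 higher, and 8 were lower in all 5 computations. The median was −0.86 (−1.27 to −0.70), and 23 of 28 lay below 0. Together these genes took a median of 0.371% of gene counts in small cells (0.0505% to 0.660%) and 0.619% in ungated cells (0.417% to 1.42%). In 8 of 12 small cells the share was below that of every ungated cell, as it was in 5 of the 7. Fewer small than ungated cells were in G2/M, as given above. Phases were themselves called from cell cycle genes, so they are not independent of this list. Among cells that cyclone placed in S alone, 5 small and 8 ungated, the median of the list was −0.51. These small S cells include the cell of most genes and a cell with 11.1% of spike-ins. Ccna2, the cyclin A of S phase and mitosis, was not named by the fixed rule and was chosen after its values were seen. It ranged from 0.576 to 645 normalized counts in small cells (median 127) and from 314 to 1979 in ungated cells (median 809), and the small cell was lower in 93.9% of pairs, with a relative log2 ratio of −1.72. Cdc25c, the phosphatase that switches on CDK1, was detected in 4 of 12 small cells and 18 of 22 ungated ones, a relative log2 ratio of −2.48. Pttg1, which encodes securin, had counts in 4 and 12 cells and a ratio of −2.77. Cks1b, a small partner of cyclin-dependent kinases, was the exception at 1.53, but stood at 0.13 in the 7 small cells and was not called in all 5 computations.

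Spindle and kinetochore genes had a median of −0.38 (−0.78 to 0.17), with 10 of 39 called lower, all 10 of them in all 5 computations, and 2 higher. In the 7 small cells the median was −0.67 and 16 were past the threshold downwards. Kif18b, a kinesin that shortens microtubule ends, had 4411 counts over 19 of 22 ungated cells (exact Poisson interval 4282 to 4543) and 97 counts over 2 of 12 small cells (78.7 to 118), with a relative log2 ratio of −4.72. Such intervals treat reads as independent and do not cover amplification or the spread between cells. Cenpa, the histone H3 variant of centromeres, had a median of 89.9 normalized counts in small cells (0 to 340) and of 327 in ungated cells (2.14 to 1665), a ratio of −1.87. Cenpe, a kinetochore motor, shows what a single cell can do to a mean. Its ratio was 3.68 because 1 small cell reached 15929 normalized counts, while the medians were 38.8 in small and 117 in ungated cells and the ratio in the 7 small cells was −0.67. Smc2, a condensin subunit, was the other member called higher, at 1.66, and stood at 0.84 in the 7 cells.

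Genes of the central spindle and midbody, the structure that joins sister cells until abscission, had a median of −0.42 (−1.03 to 0.72, and −0.57 in the 7 small cells), with 6 of 19 called lower and 4 higher. Kif23, the kinesin of the centralspindlin complex, lies at chromosome 9, 61915905 to 61946774 (ENSMUSG00000032254). It was detected in 7 of 12 small cells and 22 of 22 ungated ones, with 465 counts (424 to 509) against 7377 (7210 to 7547). The median of cells was 0.6 against 202 normalized counts, and the relative log2 ratio was −2.89 in the 12 and −2.88 in the 7 small cells. Kif20a, the kinesin that carries the chromosomal passengers to the midzone, ranged from 0 to 359 in small cells (median 18.4) and from 1.38 to 1620 in ungated cells (median 415), with a ratio of −2.33 and the small cell lower in 91.7% of pairs. Sept11, a septin of the cortex and the bridge, lay the other way at 4.08, with 1.01 in the 7 small cells. Cep55, which recruits the abscission machinery to the midbody, stood near the median of all genes at −0.07.

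ESCRT genes, whose products cut the bridge, had a median of −0.25 (−0.49 to 0.65, and 0.037 in the 7 small cells), with 3 of 19 called lower, 3 higher and 2 lower in all 5 computations. Vps4b, an ATPase that disassembles the ESCRT filament, was among the lowest at −1.23, with a median of 40.1 normalized counts in small and 172 in ungated cells. Ist1, which binds it, stood at 1.21 and was not called in all 5. Pdcd6ip (ALIX), the bridge between CEP55 and ESCRT-III, had a ratio of 0.65. Chmp4b, the filament subunit it recruits, was too low to be compared, with means of 16 normalized counts in small and 11.6 in ungated cells.

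**Figure D4:**
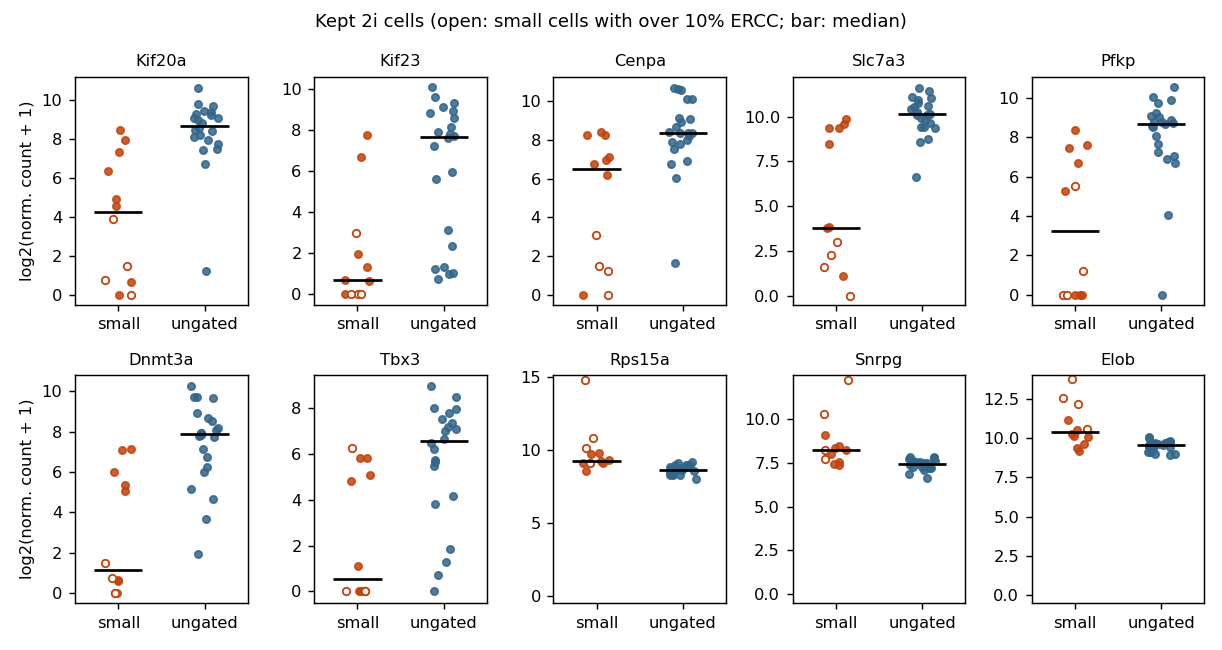
Each panel is a gene and each point a kept 2i cell, with log2(normalized count + 1) on the vertical axis, small cells on the left and ungated cells on the right. Bars are medians and open circles are the 4 small cells with over 10% spike-ins. For Kif20a, Kif23, Cenpa, Slc7a3, Pfkp, Dnmt3a and Tbx3 part of the small cells lie at or near 0 while most ungated cells do not, and for Rps15a, Snrpg and Elob most small cells lie above the ungated median.

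G1 and G1/S regulators did not stand apart from all genes, with a median of −0.11 (−0.44 to 0.39, and −0.33 in the 7 small cells), 4 of 17 called higher and 2 lower. Ccne1, cyclin E1 of the G1/S transition, had a ratio of 2.97 that came from 1 small cell with 48185 normalized counts. The medians were 355 in small and 506 in ungated cells, and the ratio in the 7 small cells was −0.56. E2f1, the activator of S phase genes, was detected in 5 of 12 small cells and 12 of 22 ungated ones and a ratio of −1.17. Replication licensing genes had a median of −0.26 (−0.92 to 0.08, and −0.30 in the 7 small cells), with 6 of 24 called lower and 3 higher. Mcm10, which activates the helicase, had a median of 2.65 normalized counts in small and 286 in ungated cells and a ratio of −1.73. Cdc6, the helicase loader, had a ratio of −1.24 that was not called in all 5 computations. Gmnn, whose product geminin blocks licensing after G1, had a ratio of 3.27 in the 12 and 0.28 in the 7 small cells. Genes of the replication fork and nucleotide supply had a median of −0.26 (−0.57 to 0.20, and −0.26 in the 7 small cells), with Pola2 and Pold2, subunits of polymerases alpha and delta, both at −1.38. Tyms, thymidylate synthase, had a ratio of 3.21 in the 12 and 0.10 in the 7 small cells. Of the replication-dependent histones 10 of 68 reached the minimum. Transcripts of these genes lack a poly(A) tail, on which Smart-seq2 primes, and its part in this number was not tested. The median of the 10 was 1.19 (−0.33 to 2.27) in the 12 and 0.08 in the 7 small cells, and Hist1h2ao had a ratio of 2.54 in the 12 and 0.31 in the 7.

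Cytoplasmic ribosomal protein genes lay mostly higher in small cells. Of 82 members compared, 43 were called higher and 1 lower, 17 were higher in all 5 computations, and 8 lay below 0. Their median was 1.11 (0.81 to 1.66). It was 0.32 in the 7 small cells, where 3 were past the threshold upwards, so the size of the difference moved with the cells of high spike-in share. The direction of the share of counts did not rest on them. Ribosomal protein genes took a median of 3.87% of gene counts in small cells (3.15% to 8.01%) and 2.96% in ungated cells (2.45% to 3.64%). The median of the 7 small cells was 3.85%, and 9 of the 12 small cells, and 4 of the 7, lay above every ungated cell. Rps15a, a protein of the small subunit, ranged from 364 to 27350 normalized counts in small cells (median 607) and from 250 to 561 in ungated cells (median 392). The small cell was higher in 91.7% of pairs and the ratio was 3.19 in the 12 and 0.73 in the 7 small cells. Rps21 stood at 4.03 and 0.65. Rpl3 was the called exception at −1.23, and was still lower in the 7 small cells (−1.26), though not called in all 5 computations. Ribosomal protein genes have many near-identical processed pseudogenes, between which counting can split or drop reads, so single members are uncertain.

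The promoter of Rps15a is shown as an example of this list, from RefSeq at chr7:118116098-118116397 on the minus strand in GRCm38.p6. Transcripts for ribosomal proteins begin with a 5′ terminal oligopyrimidine (TOP) tract, which ties their translation to mTOR. Capitals mark the letters CTTTC or CTTTTC on the sense strand within 20 bases of the annotated start.
Rps15a: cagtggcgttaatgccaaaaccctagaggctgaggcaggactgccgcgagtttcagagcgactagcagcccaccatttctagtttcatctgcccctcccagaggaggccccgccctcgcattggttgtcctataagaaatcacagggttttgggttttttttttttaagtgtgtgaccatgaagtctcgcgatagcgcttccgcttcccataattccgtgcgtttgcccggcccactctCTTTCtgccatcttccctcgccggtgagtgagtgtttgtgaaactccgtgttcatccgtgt
These letters were found in that window in 21 of 72 promoters of the ribosomal protein genes compared (29.2%), in 6.75% of all promoters and in 6.60% of the promoters of genes called higher in all 5 computations.

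Nuclear genes of oxidative phosphorylation also lay mostly higher. Of 76 compared, 40 were called higher and 1 lower, 16 were higher and 1 lower in all 5 computations, and the median was 1.10 (0.62 to 1.51), or 0.30 in the 7 small cells. Their share of counts had a median of 3.33% in small cells (2.77% to 4.55%) and 2.78% in ungated cells (2.57% to 3.12%), with 8 of 12 small cells, and 3 of the 7, above every ungated cell. Ndufb2 and Ndufb5, subunits of complex I, had ratios of 5.03 and 4.10 in the 12 small cells and of 1.08 and 0.63 in the 7. The member called lower was Atp5s, at −1.45. Sdha, the catalytic subunit of complex II, came next at −0.69, with medians of 761 normalized counts in small and 1529 in ungated cells. Transcripts of the mitochondrial genome itself had a median of 1.15 (0.59 to 1.42) but 0.26 in the 7 small cells, none of its 10 compared members was called in all 5 computations, and their share of counts was alike, with medians of 2.53% and 2.43%. The highest ratios were those of mt-Nd4 at 1.49 and mt-Cytb at 1.42, and the lowest that of mt-Co1 at −0.29. Proteasome genes had a median of 0.37 (−0.00 to 0.78, and 0.18 in the 7 small cells), with 7 of 31 called higher and none lower or called in all 5. That share called higher was close to the 22.7% of all genes. The lowest was Psmd3 of the lid at −0.81.

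**Figure D5:**
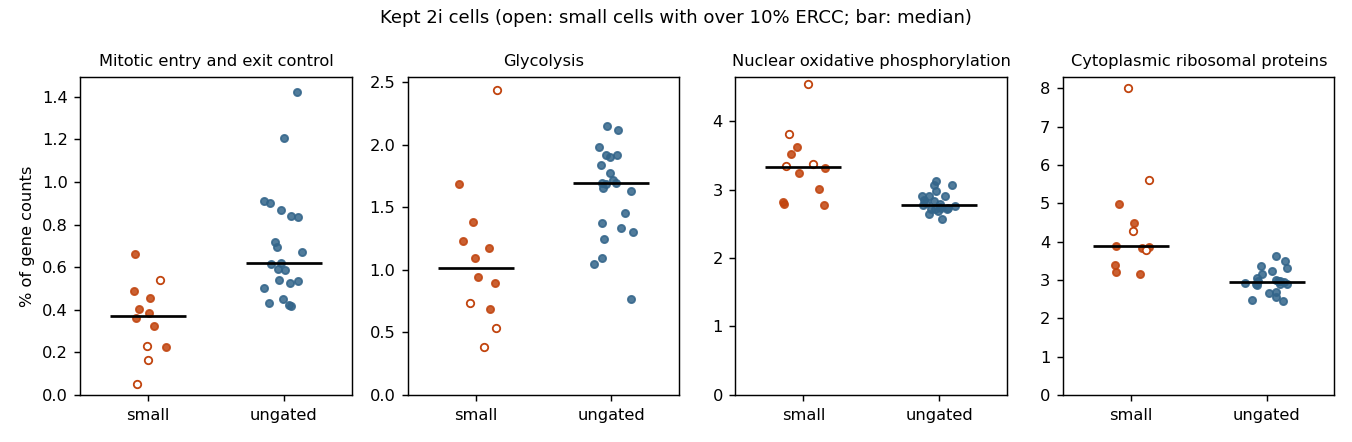
Each point is a kept 2i cell and the vertical axis is the percent of its gene counts on the genes of a list, small cells on the left and ungated cells on the right. Bars are medians and open circles the 4 small cells with over 10% spike-ins. The share of ribosomal protein genes is above every ungated cell in 9 of 12 small cells, and that of mitotic entry and exit genes below every ungated cell in 8 of 12.

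The comparison of cell pairs sets means aside. In at least 80% of pairs the small cell was higher for 129 genes and lower for 622. Of the 129, 22 were ribosomal protein genes and 5 nuclear genes of oxidative phosphorylation, which make up 82 and 76 of all 8550, and 86 (66.7%) were pseudogenes, against 8.74% of all genes compared. The median relative log2 ratio of these 129 genes was 2.12 in the 12 and 0.70 in the 7 small cells. The following were chosen after their values were seen, as examples that are not pseudogenes. Sem1, a small subunit of the proteasome lid, was higher in the small cell in 94.7% of pairs. Its normalized counts were 367 to 5226 in small cells (median 677) and 143 to 534 in ungated cells (median 349). Rpl32 was higher in 94.3% of pairs with medians of 3891 and 1867, Rps24 in 92.4% with 1426 and 825, Cox6c of complex IV in 92.8% with 776 and 405, and Uqcrb of complex III in 90.5% with 691 and 351. Over the 7 small cells the relative log2 ratios of these 5 genes lay between 0.72 and 1.01.

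Among the 622 genes lower in the small cell in at least 80% of pairs, 21 belonged to the 2 lists of mitotic control and of spindle and kinetochore, which hold 67 genes compared. Several others were chosen after their values were seen. Fkbp9, a prolyl isomerase of the endoplasmic reticulum (ENSMUSG00000029781, chromosome 6, 56832059 to 56879358), was lower in 97.3% of pairs, with 0 to 83.2 normalized counts in small cells and 3.45 to 872 in ungated cells, and a ratio of −4.56. Pdia5, a protein disulfide isomerase of the same compartment, was detected in 1 of 12 small cells and 21 of 22 ungated ones. Tmbim6, a calcium channel of its membrane, was lower in 97.0% of pairs with medians of 311 and 958. Cdk16, a kinase activated by cyclin Y, was lower in 95.1% with medians of 10.7 and 480. Pgd, an enzyme of the pentose phosphate pathway, was lower in 94.3% with medians of 250 and 892. Of these 5, Pgd was not called lower in all 5 computations.

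Glycolysis genes lay lower in small cells, with a median of −0.61 (−1.11 to −0.19), 6 of 21 called lower and 3 higher, and 5 lower in all 5 computations. The median in the 7 small cells was −0.49. They took a median of 1.02% of gene counts in small cells (0.381% to 2.44%) and 1.69% in ungated cells (0.769% to 2.15%), and in 4 of 12 small cells the share was below that of every ungated cell. Pfkp, a phosphofructokinase at the committed step (ENSMUSG00000021196, chromosome 13, 6579768 to 6648777), was detected in 7 of 12 small cells and 21 of 22 ungated ones, with medians of 19.4 and 414 normalized counts and a ratio of −2.27. Slc16a3, which exports lactate, had 1 count in small cells against 1137 over 10 ungated cells, a ratio of 0.00146 per count on genes (exact counting interval 3.69e-05 to 0.00815). Pgk1, phosphoglycerate kinase, had a ratio of 2.42 in the 12 and 0.36 in the 7 small cells.

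Cholesterol synthesis and uptake had a median of −0.46 (−1.25 to 0.01), with 10 of 25 called lower, 1 higher and 8 lower in all 5 computations. In the 7 small cells the median was −0.64. Srebf1, one of the SREBP factors that switch on lipid synthesis, had 41 counts (29 to 56) over 2 of 12 small cells and 2943 (2838 to 3051) over 17 of 22 ungated cells, and none in the 7 small cells. Its ratio was −5.10. Insig2, which holds SREBPs in the endoplasmic reticulum, had counts in 4 and 14 cells and a ratio of −2.71. Hmgcs1, an enzyme early in the pathway, had a ratio of 1.05 although the small cell was lower in 78.0% of pairs, with medians of 84.0 and 251.

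Lysosomal genes and their regulators, a list around the factor TFE3, had a median of −0.58 (−0.70 to −0.09, and −0.30 in the 7 small cells), with 5 of 25 called lower, each in all 5 computations, and 2 higher. Rragc, a Rag GTPase that recruits mTORC1 to lysosomes, was detected in 3 of 12 small cells and 17 of 22 ungated ones and a ratio of −4.21. Neu1, lysosomal sialidase, had counts in 2 and 18 cells and a ratio of −2.59. Fnip1, a partner of folliculin in the control of TFE3, was the highest at 3.58, with counts in 4 small and 8 ungated cells. The integrated stress response had a median of −0.31 (−0.88 to 0.14, and −0.23 in the 7 small cells), with 4 of 23 called lower, each in all 5 computations, and 3 higher. Slc7a3, a transporter of arginine and lysine (ENSMUSG00000031297, chromosome X, 101079210 to 101086020), ranged from 0 to 942 normalized counts in small cells (median 12.9) and from 97.9 to 3137 in ungated cells (median 1128), with the small cell lower in 91.7% of pairs and a ratio of −1.87. Chac1, which degrades glutathione, had counts in 2 of 12 and 13 of 22 cells and a ratio of −3.28, and Nupr1 lay the other way at 2.49. Targets of p53 had a median of −0.21 (−0.96 to 0.38, and −0.15 in the 7 small cells), with 4 of 19 called each way, and Sesn2, a sensor of leucine, was among the lowest at −1.5. Chaperones lay close to all genes, with a median of −0.23 (−0.34 to 0.14, and 0.010 in the 7 small cells) and 1 of 23 called. Ribosome biogenesis had a median of −0.12 (−0.37 to 0.13, and 0.090 in the 7 small cells), in contrast to the ribosomal proteins themselves, with 5 of 50 called lower and 7 higher. Its lowest members were Rrp12, at −3.77, and the acetyltransferase of ribosomal RNA Nat10, at −2.51, which was detected in 5 of 12 small cells and 22 of 22 ungated ones.

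The naive network differed little as a whole. Its median was −0.18 (−0.67 to 0.17) and −0.14 in the 7 small cells, with 4 of 17 called lower, 2 higher, and 2 lower and 1 higher in all 5 computations. Zfp42 was detected in every kept cell, with 3.34 to 4205 normalized counts in small cells (median 2471) and 150 to 5328 in ungated cells (median 3006), and a ratio of −0.14. Nanog, also detected in every kept cell, had medians of 854 and 1120 and a ratio of −0.52. Tfcp2l1 stood at 0.17. Tbx3 was the lowest member (ENSMUSG00000018604, chromosome 5, 119670669 to 119684724), with counts in 6 of 12 small and 21 of 22 ungated cells, medians of 0.594 and 94.0, and a ratio of −2.25 in the 12 and −2.72 in the 7 small cells. Klf5 had medians of 6.03 and 235 and a ratio of −1.5. Klf2 had a ratio of 2.21 that was not called in all 5 computations and was 0.52 in the 7 small cells. Dppa3 (Stella), which protects methylated DNA in early embryos, was the 1 member higher in all 5, at 1.47, with counts in 10 of 12 small and 12 of 22 ungated cells. Klf4 had counts in 4 of 12 and 10 of 22 cells and a ratio of 0.74. Of the naive markers given, Zfp42 and Nanog were thus present in every cell of both gates, whereas Tbx3 and Klf4 were missing from part of the cells of each. Values of the markers Esrrb, Pou5f1 and Sox2 are not given here.

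General pluripotency genes had a median of −0.31 (−0.50 to 0.96, and −0.083 in the 7 small cells), with 2 of 20 called lower and 5 higher. Lin28a, which blocks the maturation of let-7, was detected in 3 of 12 small cells and 18 of 22 ungated ones and a ratio of −1.99, and the zinc finger factor Thap11 stood at −1.22. Sall4 had a ratio of 2.66 in the 12 and 0.64 in the 7 small cells. Of the 21 formative and primed genes, which rise as cells leave the naive state, 7 were high enough to be compared. Otx2 stood at 0.31 with cell medians of 5.54 and 5.96 normalized counts, and Fgf5 was not compared, with 29 counts in 1 small cell and 160 in 2 ungated cells. The 1 member called was Dnmt3a, the de novo DNA methyltransferase (ENSMUSG00000020661, chromosome 12, 3806007 to 3914443). It ranged from 0 to 141 normalized counts in small cells (median 1.24) and from 2.80 to 1234 in ungated cells (median 232), with the small cell lower in 90.2% of pairs and a ratio of −2.88 in the 12 and −2.43 in the 7 small cells. Dnmt3b stood at −0.83 and the maintenance enzyme Dnmt1 at −1.18, not called in all 5. DNA methylation genes together had a median of −0.20 (−0.95 to 0.68, and −0.16 in the 7 small cells), with 2 of 12 called lower and none higher.

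Signalling lists were short after the minimum and had wide intervals. Nodal and SMAD2/3 genes had a median of −0.02 (−3.48 to 0.43, and 0.52 in the 7 small cells), with 2 of 7 called lower, both in all 5 computations. Smad4, the shared SMAD, was detected in 2 of 12 small cells and 10 of 22 ungated ones and a ratio of −3.48, and Lefty2, the inhibitor of Nodal, in 3 and 9 cells with a ratio of −2.03. BMP and Id genes had a median of −0.28 (−1.06 to 1.06, and −0.0082 in the 7 small cells), LIF and STAT3 genes of −0.20 (−3.91 to 1.51, and −0.23 in the 7 small cells), Wnt and beta-catenin genes of 0.13 (−0.53 to 0.71, and 0.38 in the 7 small cells), ERK targets of −0.49 (−1.57 to 1.97, and −0.026 in the 7 small cells) and YAP and TEAD genes of −0.24 (−1.30 to 2.51, and −0.087 in the 7 small cells). Jak1, the kinase below the LIF receptor, had counts in 1 of 12 small cells, and in none of the 7, against 17 of 22 ungated cells, with a ratio of −3.91. Apc, the scaffold that marks beta-catenin for destruction, had counts in 1 and 13 cells and a ratio of −2.57, and Gsk3b, the kinase that 2i inhibits, lay the other way at 2.03, with 1.26 in the 7 small cells. Dusp1, a phosphatase of MAP kinases, stood at 1.97 and 1.34.

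Polycomb repressive complex 2 genes had a median of 0.74 (0.41 to 2.07), with 4 of 12 called higher and none lower, and 0.33 in the 7 small cells. No member compared lay below 0 in the 12 small cells. Suz12, a core subunit, had a ratio of 3.15, though its cell medians were 1.95 in small and 6.53 in ungated cells. Elob, which also serves ubiquitin ligases, had medians of 1331 and 744 and a ratio of 2.32, with 0.80 in the 7 small cells. Spliceosome genes had a median of −0.18 (−0.46 to 0.89, and 0.058 in the 7 small cells) with 7 of 29 called higher, and the small core proteins Snrpg and Snrpd2 had ratios of 2.41 and 2.11 and were higher in the small cell in 87.1% and 83.0% of pairs, whereas Prpf19, a ubiquitin ligase of the active spliceosome, stood at −1.08. Long non-coding RNAs had a median of 0.47 (−0.30 to 2.39) in the 12 and 0.71 in the 7 small cells, with 2 of 11 called higher and 1 lower. Tug1 stood at 3.10 and Meg3, an imprinted transcript, at −1.34. Imprinted genes had a wide interval around 1.21 (−1.33 to 2.39, and 0.25 in the 7 small cells), with Phlda2, a repressor of placental growth, at 3.10 and Mest at −1.37. In S cells alone the direction turned, with a median of −0.71 for the list and −0.80 for Phlda2. Genes of the cell cortex had a median of 0.29 (−0.32 to 1.19), with 10 of 30 called higher and 3 lower. In the 7 small cells it was −0.039, with 4 past the threshold upwards and 3 downwards. Actn4, an actin crosslinker, had medians of 43.2 and 1007 normalized counts and a ratio of −1.74, and Msn, which encodes moesin and ties actin to the membrane, a ratio of −1.73. Rock2, the kinase below RhoA, had a ratio of 6.82 that is described next.

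The 12 genes with the largest ratio upwards, among those called in all 5 computations and detected in at least 50% of small cells, were Frk, Cd59b, Gm15529, Rock2, Iqsec1, Acbd5, Slk, Gm37258, Ccni, Ythdf3, Ptbp3 and Mprip, with ratios from 7.53 down to 5.36 for all but Frk. Their means rested on few cells. The median small cell had between 0.272 and 80.7 normalized counts of them, while the highest cell had between 774 and 25413. Frk, a tyrosine kinase, had 1233 counts over 6 small cells (1165 to 1304) and none in the 22 ungated cells. Against a floor of 3 counts over the ungated cells it was at least 683-fold higher per count on genes, but the mean of the 7 small cells, 3 of which had counts, was 0.279 normalized counts. Slk, a kinase that phosphorylates ERM proteins, was detected in 8 of 12 small cells and 5 of 22 ungated ones, and a ratio of 6.18 in the 12 and 2.40 in the 7 small cells. Ythdf3, a reader of N6-methyladenosine, had 5.51 in the 12 and 0.01 in the 7. Over the 7 small cells 10 of the 11 genes other than Frk were past the threshold. These 7 are among the 12 cells used to choose the genes, so this gives no separate support. The median of the 7 cells was 0 for Rock2, Iqsec1, Acbd5, Gm37258 and Mprip.

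The 12 genes with the largest ratio downwards, by the same rule with at least 50% of ungated cells, were Zkscan5, Lrmp, Map4k1, Zdhhc7, Ccm2, Narf, Fbxo42, Srebf1, Angel1, Nuak2, Gne and Mut, with ratios from −5.67 to −4.90 for those with more than 3 counts in small cells. They had counts in 1 to 5 of 12 small cells and in 11 to 19 of 22 ungated cells. Zkscan5, a zinc finger factor, had 2 counts in small cells against 1623 over 17 ungated cells (1545 to 1704), a ratio of 0.00205 per count on genes (0.000248 to 0.0074). Nuak2, a kinase related to AMPK, had 2 counts against 951, a ratio of 0.00349 (0.000422 to 0.0127). Ccm2, a scaffold of small GTPase signalling, had a median of 0 normalized counts in small and 149 in ungated cells. Mut, the mitochondrial mutase of methylmalonyl-CoA, had medians of 0 and 142, and Fbxo42, a part of a ubiquitin ligase for p53, of 0 and 79.4. Lrmp, Map4k1, Narf, Srebf1, Gne and Zkscan5 had no count in the 7 small cells.

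Markers of other lineages gave these levels. Summed over the list, primitive endoderm markers took a median of 129 CPM (counts scaled to a fixed total per cell) in small cells (0 to 570) and 241 in ungated cells (63.1 to 582), with Gata6 and Pdgfra at 0 in every cell. Trophectoderm markers took 35.6 (0 to 503) and 95 (0 to 277), with Elf5, Hand1 and Tpbpa at 0. Other members of both lists were expressed and are given below. The medians were 45.1 and 109 for neuroectoderm, 232 and 201 for germline, and 139 and 238 for fibroblasts, whose Col1a1, Col3a1, Dcn, Lum and Postn were at 0. Mesendoderm markers had a median of 0 in both gates, with Cer1, Mixl1 and Tbx6 at 0, and of the 2-cell-like markers 13 of 16 were at 0. Among single members, Gsc of the mesendoderm list had a ratio of 5.49 from counts in 3 of 12 small and 2 of 22 ungated cells, Sycp3 of meiosis had 3.24, and the neural genes Nes and Ncam1 had −4.46 and −3.50. Vim of the fibroblast list, which ES cells also express, stood at −1.22. Fn1 of that list averaged 177 normalized counts over the small cells and 176 over the ungated ones. Sparc of primitive endoderm averaged 401 and 604, and was present in 10 and 22 cells. Tfap2c of trophectoderm averaged 149 and 188, and was present in 6 and 20 cells. Cdx2 and Ascl2, also of trophectoderm, each reached 2 small cells, and 4 and 5 ungated ones. These levels were not tested for a part in any result.

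Side by side with 2i, the same gates were compared in N2B27, where 22 small and 21 ungated cells were kept on another plate and small cells had 0.799% to 6.03% of spike-ins. No sample is shared between the media. Of the 657 genes called higher in 2i in all 5 computations that could also be compared in N2B27, 509 (77.5%) lay above 0 there, with a median of 0.68. Of 1095 such lower genes 720 (65.8%) lay below 0, with a median of −0.41. Over all 7796 genes compared in both media 48.9% lay above 0 and 51.1% below, and Pearson's r across these genes, which are not replicates and share the gate, was 0.26. With the 7 small cells in 2i it was 0.16. List medians in N2B27 were −0.43 for mitotic entry and exit, −0.70 for glycolysis, −0.49 for cholesterol, 0.40 for ribosomal proteins, 0.45 for nuclear oxidative phosphorylation and −0.16 for the naive network. Ribosomal protein genes took 4.15% of counts in small and 3.37% in ungated N2B27 cells at the median, and mitotic entry and exit genes 0.445% and 0.719%. Of named genes, Kif20a stood at −1.23, Kif23 at −0.75, Rps15a at 0.64, Tbx3 at −1.04 and Slc7a3 at −0.35 there, against the 2i ratios above. Other named genes lay on the opposite side of 0 from their 2i ratio. Among them were Jak1 (0.97), Chac1 (0.97), Lin28a (0.76), Apc (0.50), Cdc25c (0.49), Pfkp (0.29) and Sept11 (−0.75). Whether any gene or list differed between the media was not tested.

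Genes that were higher and lower in 2i also differed in transcript features that the comparison did not use. Genes were split into 4 bins of equal size by the GC content of the longest transcript, and the median relative log2 ratio went from 0.32 in the lowest bin (31.0% to 44.6% GC) to 0.10, −0.09 and −0.34 in the highest (53.9% to 73.7%). The share of genes called lower in all 5 computations went from 8.86% to 21.0% along the same bins. With the 7 small cells the medians were 0.19 and −0.21 in the outer bins, and in N2B27 0.21 and −0.29. By length, the shortest bin, up to 1788 bases, stood at 0.41, the middle ones at −0.23 and −0.23 and the longest at 0.12, or 0.14, −0.16, −0.10 and 0.09 in the 7 small cells. Genes were also binned by mean normalized count, which the comparison did use for its minimum. The share called lower in all 5 computations was 25.9% in the lowest such bin and 2.53% in the highest. The share called higher was 12.2% and 8.93%, and the medians were −0.19 and 0.28. The part of count level in the trends by GC and length was not tested. The 681 processed pseudogenes compared had a median of 0.73 and 0.22 in the 7 small cells, and the 7678 protein-coding genes of −0.07 and −0.03. Their part in the list medians was not tested.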

How the data were processed

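The study sequenced single ES cells by Smart-seq2 without molecular identifiers, on 1 plate and lane per medium. Per the labels and methods, the authors trimmed reads with Trim Galore 0.4.4, aligned them with GSNAP to mm10 and counted them per gene with HTSeq. The deposited tables hold raw counts per Ensembl gene and cell, not normalized. On the 2i plate 70.3% of counts lay on genes and 5.95% on ERCC spike-ins. Rows that name no gene (ambiguous 6.16%, no feature 4.76%, not aligned 11.5%, low quality 1.23%, not unique 0.0519%) were left out. Whether counting used strand is not given in the sources used here, so overlapping and antisense genes cannot be told apart, and near-identical copies are uncertain.

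Symbols and positions came from GENCODE M21 (GRCm38) for 45143 of 46078 genes. Size factors were computed with DESeq2 1.42.0 over the kept cells of both plates, using the 1216 genes that no kept cell lacked. Phases came from cyclone in scran 1.30.0 and from Seurat 5.3.0, under R 4.3.3, and the rest from Python 3.11.15 (pandas 2.3.3, numpy 2.4.6, scipy 1.17.1, matplotlib 3.10.9). Each group is 1 pool, so no test was run. Cells are not replicates, and intervals on counts and shares cover counting error only. Counts are reads without molecular identifiers, so intervals on counts do not cover amplification or the spread between cells. The computation of the ratios was checked on simulated counts, which gives no error rate for these data.

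Named genes are the 12 genes furthest in each direction, among those called in all 5 computations and detected in at least 50% of cells of the higher group, the 2 highest and 2 lowest of each list, and a few genes of naive identity, exit and abscission. Some of these are given by counts alone, and others are said to have been chosen after their values were seen. Members, lists and rules were chosen with earlier results of these data known. Alternatives changed the size factors, the mean, the pseudocount (0.5 or 5), the minimum mean (5 or 100) and the cells kept.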

Additional observations from a re-analysis of the deposited data

Results flagged for a closer look

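Among the named genes called in 2i in all 5 computations and also high enough to be compared in N2B27, 3 were past the threshold in the opposite direction in N2B27. Zkscan5 was lower in 2i, with 2 counts in small cells, and had a relative log2 ratio of 1.38 in N2B27. E2f1, the activator of S phase genes, stood at −1.17 in 2i and 1.07 in N2B27. Lefty2, the inhibitor of Nodal, stood at −2.03 in 2i and 7.58 in N2B27, where its mean was 193 normalized counts in small and 0.0952 in ungated cells, so that the size of the second value depends on the 1 added to each mean. In 2i these genes had counts in 1, 5 and 3 of the 12 small cells. With 1 pool per side in each medium, the difference was not tested. Dnmt1, which was not called in all 5 computations, stood at −1.18 in 2i and 2.17 in N2B27.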

How the results depend on the processing

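No paired analysis was possible because each group is 1 pool and the samples share no replicate of another. Of 8550 genes, 1939 were higher and 1542 lower in small cells. ERCC size factors gave 557 higher and 1291 lower, or 3335 higher and 351 lower without centring. A minimum mean of 100 gave 954 higher and 531 lower of 4325 genes. One of 5 gave 2753 higher and 2626 lower of 11424 genes. Restricting small cells by spike-in share was chosen after seeing the data. It gave 926 higher and 1288 lower in 8 cells, and 1007 higher and 1399 lower in 7. The median of mitotic entry and exit genes (−0.86) was −0.61 with ERCC size factors, 0.17 without centring, −1.31 as a mean of log2 values, −0.51 in S cells and −0.62 in 7 cells. Without centring, spindle genes stood at 0.51, the naive network at 0.63, cholesterol at 0.37 and glycolysis at 0.14, and as a mean of log2 values spindle genes at −1.13. Spike-in scaling raises the small cell with the most genes, whose spike-in share was lowest, and its part in these values was not tested. Nuclear oxidative phosphorylation (1.10) was 1.52 with size factors from the 2i plate alone, 0.47 in S cells, 2.17 without limits on cells, 0.31 in 8 and 0.30 in 7 cells. Ribosomal proteins (1.11) were 2.67 with size factors from the 2i plate, 0.73 as CPM, 0.67 with ERCC, 0.63 from pooled counts, 1.76 as a mean of log2 values, 0.73 without the cell of highest spike-in share, 0.71 without that and the cell of most genes, 0.55 in S cells, 2.81 without limits, 0.74 when thinned, and 0.35 and 0.32 in 8 and 7 cells. Genes detected per ungated cell were 8844 when thinned.

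Some called values changed sign. In S cells these were mitochondrially encoded genes (−0.080), imprinted genes (−0.71), Apc (1.07), Ccne1 (−0.19), Cd59b (−1.34), Cenpe (−0.47), Fnip1 (−0.33), Gmnn (−0.041), Gsc (−1.09), Hmgcs1 (−0.57), Phlda2 (−0.80), Sept11 (−0.18), Smc2 (−0.10), Suz12 (−0.64) and mt-Cytb (−0.052). With ERCC size factors they were Apc (0.52), Atp5s (0.27), Ccne1 (−0.69), Hmgcs1 (−0.28), Klf2 (−0.15) and Sept11 (−0.087). As means of log2 values they were Atp5s (0.068), Cenpe (−0.69), E2f1 (0.64), Hmgcs1 (−0.41), Lefty2 (0.34) and Nes (0.20). Cenpe was −0.23 without its highest cell, −0.89 without the cell of highest spike-in share, −1.06 without that and the cell of most genes, −0.53 in 8 and −0.67 in 7 cells, and Ccne1 was −0.53, −0.51, −0.59 and −0.56 in the last 4. Gsc was −0.41 in 8 and −1.01 in 7 cells, and Hmgcs1 −0.023 in 8. Without limits on cells Apc was 0.12, Atp5s 0.20, Ccm2 2.82, Dnmt1 0.79 and Rpl3 0.10. Of 735 list medians recomputed, 671 moved by less than their spread, 62 moved by more and 2 reversed. Of 2280 gene values 702, 1536 and 42 did so. The causes were not tested. With 12 small cells from 1 pool and 22 ungated cells from another, low genes rest on few cells, and a gene without a count may be below detection.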
